A study of Mus musculus with 14 samples.

Results

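The genes described here are 10 enzymes and regulators of fatty acid synthesis, fixed by name: Fasn, Acaca, Acly, Elovl6, Scd1, Scd2, Srebf1, Thrsp, Me1 and Mlxipl. A gene counted as measured when a probe set of the array carried its symbol alone, and 9 of the 10 were measured, each by 1 probe set, of 22180 genes in all. The probe set that holds Scd2 also carries a microRNA gene, so Scd2 was not measured by this rule. All mice were male and lacked apolipoprotein E (ApoE), and 1 of the 2 genotypes also lacked the lymphotoxin beta receptor (LTbR). They ate a Western type diet for 4 weeks from 8 weeks of age and were 12 weeks old. Aorta together with its perivascular fat came from 4 ApoE/LTbR-double deficient mice (double-deficient below) and 4 ApoE deficient littermates. Blood cells that bear CD115, which monocytes carry as a growth factor receptor, were pulled out with magnetic beads after a density gradient, which gave 3 double-deficient and 3 ApoE-deficient preparations. Of the latter, replicates 3 and 4 were each a pool of 2 littermates. The ApoE-deficient controls are therefore not healthy mice, and every comparison below is between 2 groups without ApoE on the same diet.

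Cells build fatty acids in the cytosol from acetyl-CoA. ATP citrate lyase (Acly) makes acetyl-CoA from citrate, acetyl-CoA carboxylase 1 (Acaca) turns it into malonyl-CoA, and fatty acid synthase (Fasn) joins these units to palmitate with NADPH, part of which malic enzyme 1 (Me1) supplies. Elovl6 lengthens palmitate to stearate, and the stearoyl-CoA desaturases Scd1 and Scd2 set a double bond into it. Srebf1 encodes the sterol element binding protein SREBP-1, which insulin and the liver X receptors switch on, and Mlxipl encodes the carbohydrate response element binding protein (ChREBP), which responds to glucose. Thrsp encodes a small nuclear and cytosolic protein of lipogenic tissue that is induced by thyroid hormone and carbohydrate. Fat tissue is one of the main sites of this pathway, and the aorta samples included the fat around the vessel.

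The values, taken as log2 signals, are differences from the middle of each probe set within a tissue. A value of 0 is thus the middle array of that tissue, and levels cannot be compared between genes or between tissues. No level is left in such values, so neither the tissue labels nor the CD115 selection could be checked against defining markers. In a bulk sample, fewer cells of a type and less RNA per cell cannot be told apart. As a check of the labels, Ltbr was read in aorta at -0.98, -1.10, -1.29 and -0.49 for double-deficient replicates 1 to 4 and at 0.63, 0.49, 0.70 and 0.89 for ApoE-deficient replicates 1 to 4. In CD115+ cells it was at -0.07, -0.62 and -0.44 in double-deficient replicates 1 to 3 and at 0.55, 0.07 and 0.40 in ApoE-deficient replicates 1, 3 and 4. The groups did not overlap in either tissue. The differences were -1.64 (SE 0.17, limma adjusted p = 0.0679) and -0.72 (SE 0.18, limma adjusted p = 0.976), so in neither tissue did Ltbr pass the threshold of 0.05. The part of Ltbr that its probe set reads relative to the deletion is not in the labels.

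The start regions of Fasn and Mlxipl are shown because Fasn makes the fatty acid itself and Mlxipl had the largest aortic difference of the 9 genes. RefSeq's table on GRCm38.p6 lists starts for 8 of the 10 genes, 12 starts in all, and the 250 bases before each were searched on both strands for 5 motifs. These were the E-box CACGTG, the sterol element TCACNCCAC, the CCAAT box CCAAT, the GC box GGGCGG and the liver X receptor element named DR4. Each sequence is written 5′ to 3′ on the strand of its gene, with every match in capitals.
Fasn, chr11:120824548-120824797, minus strand: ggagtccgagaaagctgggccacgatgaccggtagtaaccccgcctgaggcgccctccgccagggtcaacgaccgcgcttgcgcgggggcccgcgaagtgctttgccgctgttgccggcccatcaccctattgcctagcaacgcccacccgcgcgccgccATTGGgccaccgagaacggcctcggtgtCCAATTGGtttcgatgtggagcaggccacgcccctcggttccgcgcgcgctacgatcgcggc
Mlxipl, upstream start, chr5:135089640-135089889, plus strand: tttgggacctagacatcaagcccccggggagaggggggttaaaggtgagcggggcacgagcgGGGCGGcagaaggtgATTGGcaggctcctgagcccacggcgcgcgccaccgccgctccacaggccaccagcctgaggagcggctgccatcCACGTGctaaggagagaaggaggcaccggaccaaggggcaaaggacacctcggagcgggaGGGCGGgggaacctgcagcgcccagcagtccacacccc
Mlxipl, downstream start, chr5:135106641-135106890, plus strand: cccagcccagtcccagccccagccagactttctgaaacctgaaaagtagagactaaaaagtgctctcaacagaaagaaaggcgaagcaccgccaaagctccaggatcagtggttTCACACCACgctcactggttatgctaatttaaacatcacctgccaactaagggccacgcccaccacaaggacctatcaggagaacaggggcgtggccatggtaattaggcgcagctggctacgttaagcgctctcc

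The Fasn region held 3 CCAAT matches, of which the 2 nearest to the start overlap each other on opposite strands. The 2 Mlxipl starts lie 17001 bases apart, and the array values do not say which of them a signal came from. The upstream Mlxipl region held an E-box, 98 to 93 bases before the start, and the downstream region a sterol element, 136 to 128 bases before the start. Of the 12 member starts, 1 held an E-box, 1 a sterol element, 6 a CCAAT box, 5 a GC box and 0 the liver X receptor element. Over all 32851 listed starts, the shares were 6.02%, 1.05%, 33.8%, 32.7% and 0.0152%. Thrsp, Srebf1 and Me1 also had a CCAAT box, and Acly, Srebf1 and Me1 a GC box, while the windows of Elovl6 and Acaca had no match. These matches describe letters in the window and were not set against the expression values.

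In the aorta all 9 measured genes had a higher mean in double-deficient than in ApoE-deficient samples, with log2 differences from 0.06 for Scd1 to 0.68 for Mlxipl. The median of the 9 differences was 0.49, against 0.01 over all genes, and a difference above 0 was found for 52.8% of all genes. Of the 9 genes, 0 passed the threshold of 0.05 on the adjusted p over all genes (limma, Benjamini-Hochberg), where 0.00451% of genes did, and 0 had an unadjusted p under 0.05, where 7.72% did. The SD among ApoE-deficient samples was larger than the difference for 8 of the 9 genes and about equal to it for Srebf1. The groups overlapped for 9 of the 9, and 4.3% of all genes had groups without overlap. Replicates 1 and 2 of that group lay below every double-deficient sample for 9 of the 9 genes, while replicates 3 and 4 lay among or above the double-deficient values. That arrangement, which was picked out after the values had been seen, was found for 11.6% of all genes.

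Among the genes that supply precursors, Acly was at -0.18, -0.14, 0.72 and 0.14 in double-deficient replicates 1 to 4 and at -1.12, -1.05, 0.25 and 0.51 in ApoE-deficient replicates 1 to 4. The ApoE-deficient samples thus split, with 2 low and 2 within the double-deficient range, and the groups overlapped. The means were 0.14 ± 0.42 and -0.35 ± 0.85 (SD, n = 4 each), a difference of 0.49 (SE 0.42, limma adjusted p = 0.846). Me1 had the same split, at -0.23, -0.23, 0.92 and 0.23 for double-deficient replicates and at -1.14, -0.83, 0.25 and 0.41 for ApoE-deficient ones. Its difference was 0.50 (SE 0.42, limma adjusted p = 0.842), and double-deficient replicate 3 stood highest of all 8 samples.

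The enzymes that build the chain followed this order. Acaca was at -0.11, -0.02, 0.58 and 0.14 in double-deficient and at -0.96, -0.77, 0.02 and 0.16 in ApoE-deficient samples. Its difference was 0.53 (SE 0.28, 95% interval -0.12 to 1.18, limma adjusted p = 0.703), a ratio of 1.45, and the exact two-sided permutation test gave p = 0.257. Fasn spread less, at -0.09, -0.004, 0.26 and 0.13 in double-deficient and at -0.65, -0.62, 0.004 and 0.12 in ApoE-deficient samples. The 2 low ApoE-deficient samples were again replicates 1 and 2, and the other two sat inside the double-deficient range. The means of Fasn were 0.08 ± 0.16 and -0.29 ± 0.41 (SD, n = 4 each), which gives a difference of 0.36 (SE 0.20, 95% interval -0.09 to 0.82, limma adjusted p = 0.71) and an exact permutation p of 0.2. With 4 against 4 samples that test cannot go below 0.02857.

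Elovl6 and Scd1, which act one after the other on the product of Fasn, differed in how widely they spread. Elovl6 was at -0.18, -0.35, 0.60 and 0.29 in double-deficient and at -1.61, -1.17, 0.18 and 0.40 in ApoE-deficient samples. From its lowest to its highest sample it covered 2.22 on the log2 scale, the widest range of the 9 genes, and its SD over the 8 samples exceeded that of 98.0% of all genes. Its difference was 0.64 (SE 0.48, 95% interval -0.46 to 1.74, limma adjusted p = 0.812). Scd1 was at -0.04, 0.03, -0.01 and 0.13 in double-deficient and at -0.10, -0.15, 0.09 and 0.01 in ApoE-deficient samples, a range of 0.28. Its SD exceeded that of 18.8% of all genes, and its difference was 0.06 (SE 0.08, 95% interval -0.11 to 0.24). Even so, ApoE-deficient replicates 1 and 2 were the 2 lowest samples for Scd1 as well.

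Of the regulators, Mlxipl had the largest difference of the 9 genes, 0.68 (SE 0.44, 95% interval -0.33 to 1.70, limma adjusted p = 0.763), a ratio of 1.61. It was at -0.40, -0.13, 0.36 and 0.24 in double-deficient and at -1.32, -1.62, 0.14 and 0.13 in ApoE-deficient samples, so that 2 ApoE-deficient samples were far below the other 6. Srebf1 was at -0.21, 0.01, 0.62 and 0.17 in double-deficient and at -0.30, -0.73, 0.08 and -0.01 in ApoE-deficient samples. Here replicate 1 of the ApoE-deficient group was only just below the lowest double-deficient sample, and the difference was 0.38 (SE 0.23, limma adjusted p = 0.739). Thrsp was at -0.03, -0.15, 0.07 and 0.06 in double-deficient and at -0.35, -0.45, 0.03 and 0.16 in ApoE-deficient samples, with a difference of 0.14 (SE 0.14, limma adjusted p = 0.876). Its range of 0.61 lay between those of Scd1 and Fasn.

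**Figure D1:**
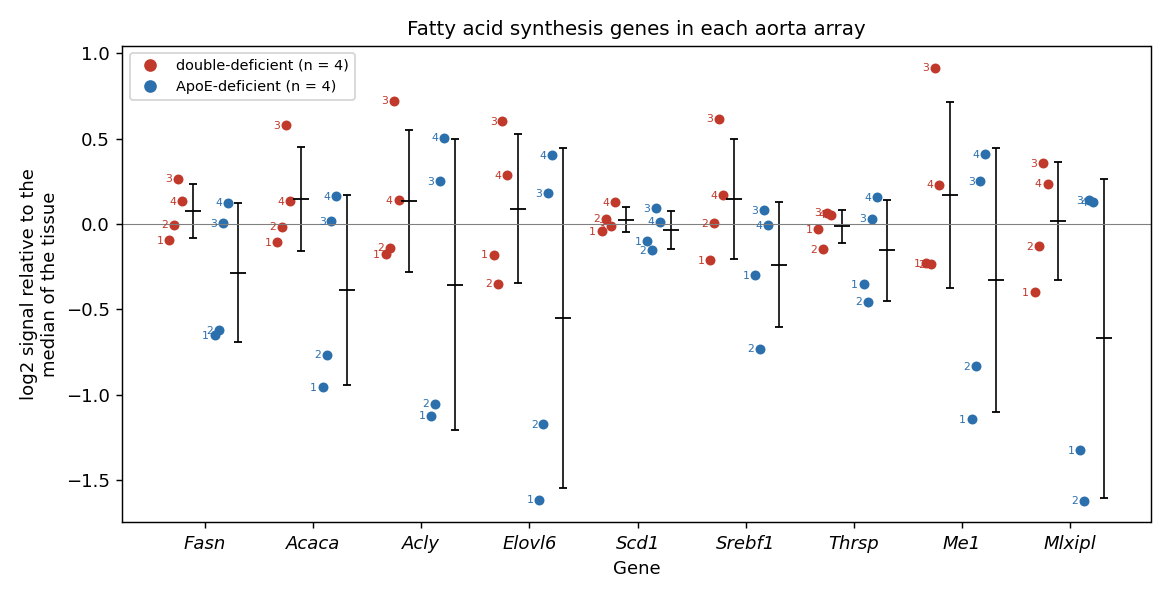
Log2 signal of the 9 measured genes in each aorta sample, relative to the median of the 8 samples; numbers beside the points are replicates, and bars give the mean and SD of each group (n = 4). ApoE-deficient replicates 1 and 2 are the lowest points for 9 of the 9 genes, with Srebf1 replicate 1 (-0.30) close to double-deficient replicate 1 (-0.21), and double-deficient replicate 3 is the highest for 7 genes.

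Double-deficient replicate 3 was the highest of the 8 aortas for 7 of the 9 genes, and ApoE-deficient replicates 1 and 2 were the lowest for 5 and 4 of them. Over all genes these arrays were the highest or the lowest for 12.8%, 14.2% and 16.7%. The median of the 9 differences was 0.24 without ApoE-deficient replicate 1, 0.26 without ApoE-deficient replicate 2 and 0.30 without double-deficient replicate 3, and these 3 arrays moved it by over 1.5 times. It stayed above 0 without any single array, as did the difference of each of the 9 genes.

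The 9 genes varied together across the aortas. Fasn and Acaca had a Pearson r of 0.99 over the 8 arrays (Spearman's rho 0.98), and r was 0.95 without ApoE-deficient replicates 1 and 2, the 2 arrays farthest from the median of Fasn. For Mlxipl, Elovl6, Acly and Me1 r with Fasn ran from 0.95 to 0.98, and from 0.87 to 0.91 without those arrays. Srebf1 stood at 0.86 and 0.89. Thrsp, at 0.93 with all arrays, was at 0.59 without the 2 low ones, and Scd1 went from 0.77 to 0.11. These values describe 8 arrays, 2 of which stand apart, and are given without a test.

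Ranked over 19238 genes with a proper name, the 5 genes most like Fasn were Pygl, Acacb, Tecr, Sccpdh and Acaca, by Pearson r over the 8 aorta arrays. Pygl, the liver-type glycogen phosphorylase, had r of 0.996, and its values were -0.997 and -1.04 in ApoE-deficient replicates 1 and 2 and between -0.16 and 0.31 in the other 6. Acacb, the acetyl-CoA carboxylase of the mitochondrial surface, whose malonyl-CoA restrains fatty acid oxidation, had r of 0.99 and put the 8 arrays in the same order as Fasn (rho of 1). It was at -1.11 and -1.04 in the same 2 arrays. Tecr, the reductase that closes each cycle of fatty acid elongation, and Sccpdh both had r of 0.99. Without ApoE-deficient replicates 1 and 2, r was 0.97 for Pygl, 0.95 for Acacb and 0.89 for both Tecr and Sccpdh. Of the 20 genes of highest r, 4 were members of the set (Acaca, Mlxipl, Elovl6 and Acly), and Slc25a1, the carrier that exports citrate from mitochondria, ranked 6 and Gbe1, the glycogen branching enzyme, 9. Gbe1 was picked out after its values had been seen.

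Of the 13 measured white adipocyte markers, 10 had a positive difference in aorta (median 0.16), 0 passed the adjusted threshold in limma and 2 had an unadjusted p under 0.05. These were Lipe, the hormone-sensitive lipase, at 0.23 (SE 0.07, limma adjusted p = 0.515) and Lpl, the lipoprotein lipase, at 0.28 (SE 0.09, limma adjusted p = 0.534). The markers differed widely in their spread over the 8 aortas. Adipoq, which encodes adiponectin, ranged from -0.11 to 0.12, Fabp4, a fatty acid carrier of adipocytes, from -0.06 to 0.16, and Plin1, the coat protein of the fat droplet, from -0.17 to 0.21. Lep, which encodes leptin, ranged from -1.09 to 0.87 and Retn, which encodes resistin, from -0.75 to 0.33, both wider than Fasn. Lep was lowest in double-deficient replicate 3 and Retn in ApoE-deficient replicate 3. The median of the 13 markers was -0.01 to 0.13 in double-deficient samples. In ApoE-deficient replicates 1 to 4 it was 0.01, -0.23, -0.05 and -0.02. ApoE-deficient replicate 1, the lowest sample for 5 of the 9 synthesis genes, was thus near the middle for these markers, while replicate 2 was the lowest of the 8. For 5 of the 13, Pparg, Slc2a4, Plin1, Lipe and Pnpla2, ApoE-deficient replicates 1 and 2 lay below every double-deficient sample, as they did for the synthesis genes. Pparg encodes the nuclear receptor that drives adipocyte formation, and Slc2a4 the insulin-responsive glucose transporter GLUT4. Pparg was at -0.71 and -0.75 in ApoE-deficient replicates 1 and 2 and between -0.10 and 0.19 in the other aortas, and Slc2a4 was at -0.74 and -0.70 in those replicates and between -0.36 and 0.27 in the others.

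Lymphocyte markers were highest in 2 of the aortas. The median of 6 B cell markers was 2.16 and 2.07 in ApoE-deficient replicates 1 and 2, -0.01 and 0.74 in replicates 3 and 4, and -0.45 to -0.14 in double-deficient samples. For 6 T cell markers it was 1.39, 1.82, 0.16 and 0.87 in ApoE-deficient and -1.13 to -0.34 in double-deficient samples. The 2 aortas with the lowest synthesis genes were therefore the 2 with the highest B and T cell markers. The other aortas did not keep that order. ApoE-deficient replicate 4, at 0.74 and 0.87 for these markers, had a synthesis gene median of 0.16. Double-deficient replicates 1 and 2, low in both lymphocyte lists, had synthesis gene medians of -0.18 and -0.13. By their medians, smooth muscle markers were lowest in ApoE-deficient replicates 1 and 2, at -0.15 and -0.33 against -0.05 to 0.49 in the others. For 5 of the 8 markers these replicates lay below every double-deficient sample, while Des was highest in ApoE-deficient replicate 2 (0.40). All 8 of 8 had a positive difference (median 0.30). The part of adipocytes, lymphocytes and smooth muscle in the synthesis gene values was not tested.

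**Figure D2:**
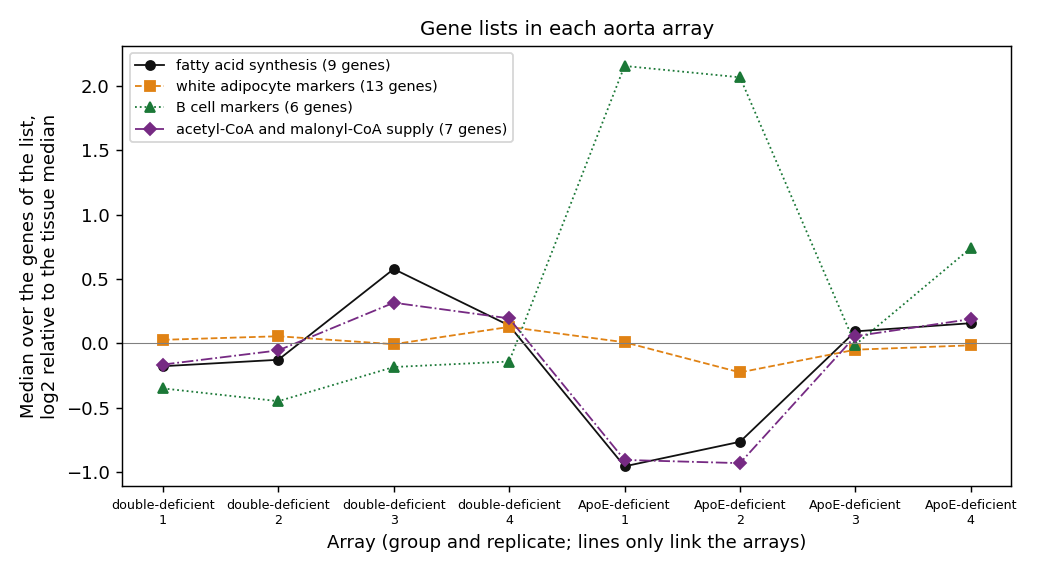
Median log2 value of 4 gene lists in each of the 8 aorta arrays, relative to the median of the tissue (lines only link arrays). The synthesis genes (-0.96 and -0.77) and the list named acetyl-CoA and malonyl-CoA supply are low together in ApoE-deficient replicates 1 and 2. B cell markers are at 2.16 and 2.07 there, and white adipocyte markers stay between -0.23 and 0.13 over the 8 arrays.

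The rest of the pathway was followed through lists by role, and 0 genes of any list passed the adjusted threshold in aorta (limma). Of 7 genes in the list named acetyl-CoA and malonyl-CoA supply, 5 had a positive difference (median 0.42), led by p by Acacb at 0.58 (SE 0.34) and Slc25a1 at 0.42 (SE 0.28). Not all genes of this list make these units. It also holds Mlycd, the malonyl-CoA decarboxylase, at 0.21 (SE 0.19). Of 17 further elongation and desaturation genes, 12 were positive (median 0.10), with Cyb5r3, the reductase that passes electrons to the desaturases, at 0.32 (SE 0.14) and the elongase Elovl5 at 0.44 (SE 0.26). Of 14 genes of triglyceride assembly 11 were positive (median 0.18). In this list Dgat1, which joins the last fatty acid, differed by 0.38 (SE 0.12, unadjusted p = 0.0117, limma adjusted p = 0.515), and Mogat2 by -0.20 (SE 0.09).

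Of the 6 measured genes of the list named NADPH supply, 4 were positive (median 0.14), Pgls was at -0.04 and Me2 was negative. Me2, a mitochondrial relative of Me1, differed by -0.63 (SE 0.16, unadjusted p = 0.00437, limma adjusted p = 0.461), the opposite sign to Me1. Its values were -0.52, -0.16, -0.03 and -0.34 for double-deficient and 0.66, 0.49, 0.03 and 0.27 for ApoE-deficient replicates. The groups were apart, as for 2.11% of all genes with lower double-deficient values. Me3, the other mitochondrial form, differed by 0.35 (SE 0.20). Me2 was thus highest in the same 2 ApoE-deficient samples in which Me1 was lowest.

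Regulators beyond the members were followed in 3 lists. Of 6 genes of the machinery that cuts and holds sterol element binding proteins 5 were positive (median 0.10), with the protease gene Mbtps2 at 0.26 (SE 0.16) and the escort Scap at 0.10 (SE 0.10). Of 11 liver X receptor, ChREBP partner and other regulator genes, 8 were positive (median 0.10), with Nr1h3, which encodes liver X receptor alpha, at 0.24 (SE 0.11) and the ubiquitin ligase gene Fbxw7 at 0.38 (SE 0.21). All 8 subunit and kinase genes of the AMP-activated kinase list, which restrains acetyl-CoA carboxylase, were positive (median 0.13), with Prkag2 at 0.28 (SE 0.15) and Prkaa2 at 0.50 (SE 0.29). The median over all genes was 0.01.

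In CD115+ blood cells 8 of the 9 genes had a lower mean in double-deficient preparations. A difference below 0 was found for 55.3% of all genes. The median of the 9 differences was -0.17, against -0.01 over all genes, and they ran from -0.23 for Thrsp to 0.001 for Scd1. Of the 9, 0 passed the adjusted threshold in limma, where 0% of all genes did, and 1, Thrsp, had an unadjusted p under 0.05, where 4.39% did. With 3 against 3 preparations the exact permutation test cannot go below p = 0.1.

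Thrsp was at -0.02, -0.32 and -0.11 in double-deficient replicates 1 to 3 and at 0.03, 0.18 and 0.02 in ApoE-deficient replicates 1, 3 and 4. The groups did not overlap, and 5.23% of all genes were likewise lower in double-deficient cells without overlap (9.16% in either direction). Its difference was -0.23 (SE 0.09, limma adjusted p = 0.976), and the exact permutation p was 0.1, the smallest possible. For the other 8 genes the groups overlapped, and double-deficient replicate 1 stood above replicates 2 and 3 of its group. Fasn was at 0.24, -0.20 and -0.18 in double-deficient and at -0.05, 0.10 and 0.05 in ApoE-deficient preparations, a difference of -0.08 (SE 0.13, 95% interval -0.40 to 0.24).

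Mlxipl was at 0.21, -0.45 and -0.31 in double-deficient and at 0.01, -0.01 and 0.08 in ApoE-deficient preparations, a difference of -0.21 (SE 0.17). Me1 was at 0.31, -0.32 and -0.28 against 0.004, 0.38 and -0.004, a difference of -0.23 (SE 0.20). In both genes replicates 2 and 3 were the 2 lowest of the 6 preparations. Acly, Acaca, Elovl6 and Srebf1 had differences of -0.10, -0.17, -0.19 and -0.13, and in each of them replicate 1 was again on top within the double-deficient group. Replicate 2 was the lowest of that group for Acly, Acaca and Srebf1, and replicate 3 for Elovl6. Scd1 was again the flattest, from -0.12 to 0.11 over the 6 preparations.

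**Figure D3:**
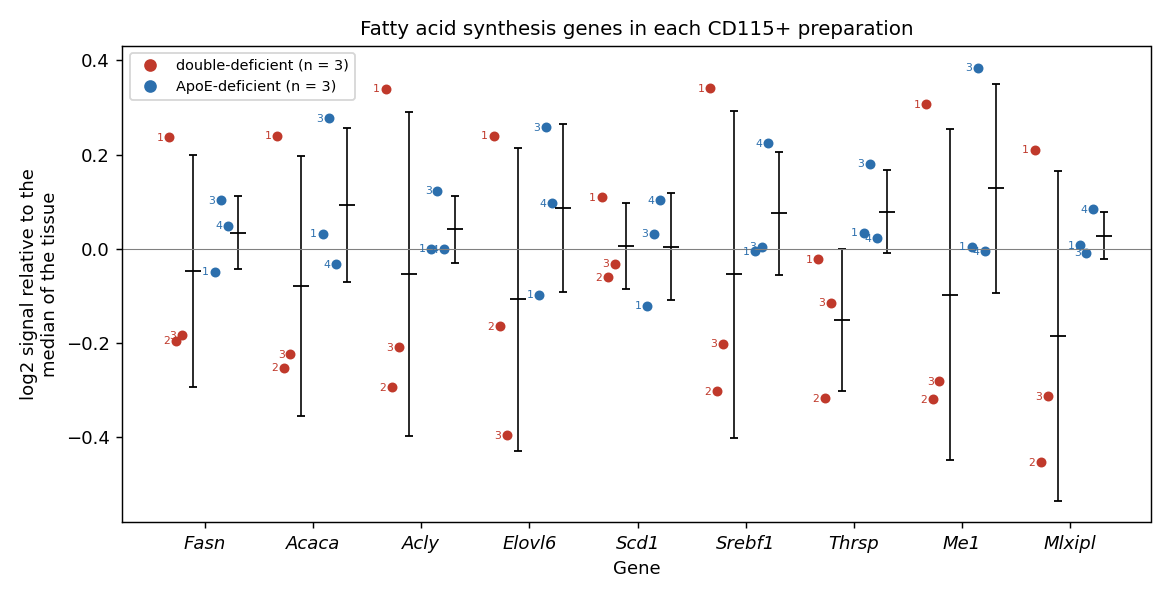
Log2 signal of the 9 measured genes in each CD115+ preparation, relative to the median of the 6 preparations; numbers are replicates, bars the mean and SD of each group (n = 3). Double-deficient replicate 1 lies above replicates 2 and 3 in each gene, and Thrsp is the 1 gene whose groups do not overlap.

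Double-deficient replicate 1 was above 0 and replicates 2 and 3 below 0 for 8 of the 9 genes, an arrangement, picked out after the values had been seen, that 27.1% of all genes had. Without replicate 1 the median difference was -0.33, and 8 of the 9 genes had an unadjusted p under 0.05 (limma), where 16.2% of all genes did. Leaving out any other single preparation gave 0 of the 9. The 9 genes varied together over the preparations (median r of 0.82 between pairs), so these 8 are not separate results. The fit without double-deficient replicate 1 also gave the lowest adjusted p of a member under the 14 alternatives, 0.0993 for Mlxipl. The median was -0.08 without double-deficient replicate 2, -0.06 without double-deficient replicate 3, -0.10 without ApoE-deficient replicate 3 and -0.05 without the pooled preparations, so each of these, like replicate 1, changed it by over 1.5 times.

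White adipocyte and smooth muscle markers had the same order as the members across these preparations by their medians. The 13 white adipocyte markers had medians of 0.27, -0.33 and -0.22 in double-deficient replicates 1 to 3 and of -0.05, 0.11 and 0.07 in ApoE-deficient replicates 1, 3 and 4. The 8 smooth muscle markers had 0.21, -0.29 and -0.27, and -0.03, 0.12 and 0.04. The medians of the 9 synthesis genes were 0.24, -0.29 and -0.21, and 0.001, 0.12 and 0.05, so the 3 sets had nearly the same value in each preparation. All 13 adipocyte and all 8 smooth muscle markers had the arrangement of replicate 1 above 0 and replicates 2 and 3 below it, as did 0 of 10 monocyte and 0 of 6 B cell markers. The brown adipocyte markers had medians of 0.13, -0.11 and -0.13 in double-deficient preparations and of -0.07, 0.04 and 0.17 in ApoE-deficient ones, highest in ApoE-deficient replicate 4, and the medians of the skeletal muscle markers stayed between -0.07 and 0.07. The monocyte markers were at -0.63, -0.15 and 1.06 in double-deficient and at 0.35, -0.07 and 0.08 in ApoE-deficient preparations, and the B cell markers at -0.38, 1.93 and 1.14 and at 0.38, -0.91 and -0.92. The part of any of these in the members' values was not tested, and detection of the members in CD115+ cells is not known, since the values hold no background.

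**Figure D4:**
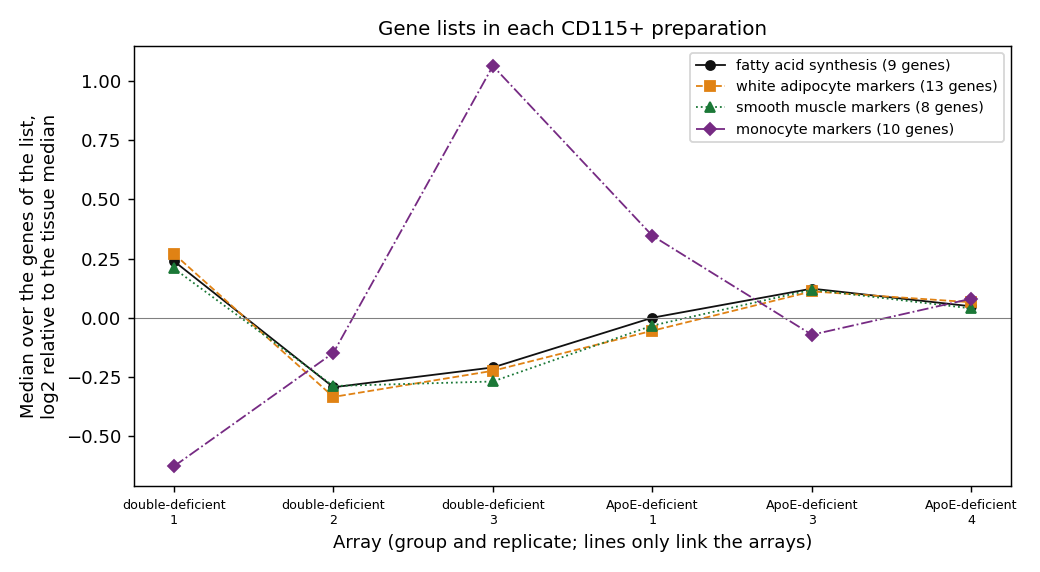
Median log2 value of 4 gene lists in each of the 6 CD115+ preparations, relative to the median of the tissue (lines only link preparations). The synthesis genes lie on the adipocyte and smooth muscle markers (0.24, 0.27 and 0.21 in double-deficient replicate 1), and the monocyte markers follow another order.

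The pathway lists gave 0 genes past the adjusted threshold in CD115+ cells (limma). Of the 7 genes of the list named acetyl-CoA and malonyl-CoA supply, 6 were negative (median -0.17), with Slc25a1 at -0.23 (SE 0.14) and the malonyl-CoA decarboxylase Mlycd at -0.15 (SE 0.11). Of the 17 elongation and desaturation genes 15 were negative (median -0.07), with Hsd17b12 at -0.22 (SE 0.15) and Hacd2 at -0.30 (SE 0.23), which both act in the elongation cycle. Of the 6 genes of the NADPH list 5 were negative (median -0.12), with Pgd, of the pentose phosphate pathway, at -0.27 (SE 0.08, unadjusted p = 0.0193, limma adjusted p = 0.976) and Me3 at -0.26 (SE 0.09). Of the 14 triglyceride genes 11 were negative (median -0.12), with Agpat1, which adds the acyl chain that makes phosphatidic acid, at -0.33 (SE 0.07, unadjusted p = 0.00471, limma adjusted p = 0.976) and Pnpla3 at -0.36 (SE 0.20).

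Of the 6 genes of the sterol element machinery 4 were positive (median 0.01, against -0.01 over all genes). Mbtps2, the protease that releases these factors from the membrane, was at 0.28, 0.10 and 0.24 in double-deficient and at -0.10, -0.32 and -0.20 in ApoE-deficient preparations. The groups did not overlap, as for 9.16% of all genes in either direction. The difference was 0.41 (SE 0.08, unadjusted p = 0.0024, limma adjusted p = 0.976). Insig1, which holds the factors back, differed by -0.09 (SE 0.14). Of the 11 other regulators 5 were positive (median -0.07), with Nr1h3 at -0.13 (SE 0.08) and Rxrb at 0.11 (SE 0.08). Of the 8 AMP-activated kinase genes 3 were positive (median -0.04), with Prkab1 at -0.22 (SE 0.07) and Prkag2 at -0.15 (SE 0.10).

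The aortic difference minus the CD115+ difference was above 0 for 9 of the 9 genes, as for 54.7% of all genes. It was largest for Mlxipl, at 0.90 (SE 0.56, 95% interval -0.33 to 2.13), and for Elovl6, at 0.83 (SE 0.61). For Fasn it was 0.44 (SE 0.27, 95% interval -0.14 to 1.03) and for Scd1 0.06 (SE 0.11). In the limma fit of the 4 group means 0 of the 9 passed the adjusted threshold, where 0% of all genes did, and 0 had an unadjusted p under 0.05, where 6.9% did. The genotype difference of these genes was therefore not shown to differ between aorta and CD115+ cells.

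**Figure D5:**
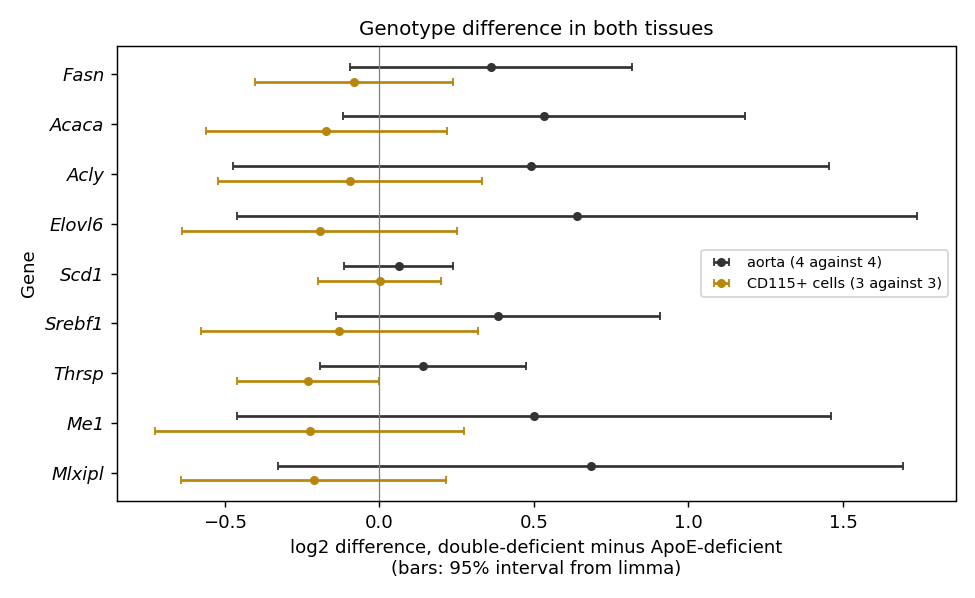
Log2 difference (double-deficient minus ApoE-deficient) of the 9 genes in aorta (4 against 4) and CD115+ cells (3 against 3), with 95% intervals from limma. The aortic differences run from 0.06 to 0.68 and their intervals include 0 for 9 of the 9 genes; in CD115+ cells the interval of Thrsp ends just below 0.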

How the data were processed

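RNA (1 ng per sample) was amplified and labelled with biotin for arrays, per the labels' protocols. The authors deposited log2 values, as they are read here, for 33793 probe sets on 14 arrays. Base of the logarithm, normalization between arrays and probe summarisation: not given in the sources used here. Per probe set the median over the arrays of each tissue was 0 within 1e-06, so values had been centred before deposition. Array medians ran from -0.0077 to 0.0052. The labels and columns used here name no batch, and no 2 arrays were identical. It is not known from the labels if 1 mouse gave both tissues, and p-values measure only the spread between these samples.

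Probe sets with 1 symbol in the platform annotation (23521) were averaged per gene. All genes were kept, since centred values hold no level. Genotypes were compared within each tissue, and between tissues, with limma 3.58.1 in R 4.3.3 (lmFit, eBayes), adjusted by Benjamini-Hochberg over 22180 genes at 0.05. The test was checked on simulated data. Members and lists were chosen with earlier results of these data known. All measured members were named, and per pathway list the 2 genes of smallest p in each tissue. Proteins of the desaturases were not analysed here.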

Additional observations from a re-analysis of the deposited data

Results flagged for a closer look

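Of 46 groups of 4 aorta samples checked (members and named pathway genes), 2 held a sample whose gap to its nearest neighbour exceeded Dixon's 95% critical share of the group's range, about as many as chance gives at 1 in 20. Me3 was at -0.39 in double-deficient replicate 3, against 0.20 to 0.26 in the other samples of that group. Mbtps2 was at -0.44 in ApoE-deficient replicate 2, against -0.01 to 0.002 in the others. For the 9 synthesis genes themselves no sample met that criterion in either aorta group. Where ApoE-deficient replicates 1 and 2 were low together, each had the other as a near neighbour, so the criterion could hardly flag them.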

How the results depend on the processing

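The differences of the 9 genes in aorta kept their sign in all 135 alternative values (15 settings), with a lowest adjusted p of 0.459, and 0 members passed the threshold in aorta, in CD115+ cells or between tissues under any setting run. Some of these settings could not change a sign. With the probe set of largest SD, robust eBayes, 1 fit of the 4 group means or the replicate block, the aortic differences equal the main ones by construction. Over all genes 1 passed in aorta, 0 with the probe set of largest SD, robust eBayes or array weights, 19 with 1 fit of the 4 group means, and 0 to 74 with 1 array left out. The 74 came without ApoE-deficient replicate 3. Between tissues 0 passed, and 0 to 58 with 1 array left out, the 58 without double-deficient CD115+ replicate 1. In CD115+ cells some differences near 0 changed sign. Fasn was at 0.0014 and Insig1 at 0.013 without the pooled preparations, where the lone ApoE-deficient preparation was assumed to vary like the others. Scd1 was at -0.033 with array weights and ran from -0.061 to 0.050 with 1 preparation left out, and Acly from -0.29 to 0.024. With the replicate number as a block (CD115+ numbers 1 and 3 only) Acly was at 0.0033, Srebf1 at 0.070, Insig1 at 0.040 and the median of the members at -0.051, while in aorta 1 gene passed and the members' median was 0.49. In aorta 4 of the 9 members had an unadjusted p under 0.05 with the block and 2 without ApoE-deficient replicate 4, against 0 as reported. Over all genes, same-numbered aortas did not deviate together (correlations from -0.146 to 0.166), nor did CD115+ preparations (-0.469 and -0.292), so the numbers were not taken as pairs. That check was not made on the 9 genes alone. Their aortic medians were -0.18, -0.13, 0.58 and 0.14 in double-deficient replicates 1 to 4. In ApoE-deficient replicates 1 to 4 they were -0.96, -0.77, 0.09 and 0.16. In both genotypes replicates 1 and 2 thus lay below replicates 3 and 4. Whether the numbers stand for anything shared between the genotypes was not tested, nor was the cause of the changes between settings. The adjusted p of Ltbr in aorta ran from 0.00598 to 0.289. The values hold no signal over background, so whether the members were detected in CD115+ cells is not known.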

Other observations

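Brown adipocyte markers were nearly even between genotypes in aorta, with 4 of 8 positive and a median difference of 0.004, and no marker had an unadjusted p under 0.05 in limma. Their medians ran from -0.26 to 0.12 in double-deficient and from -0.15 to 0.14 in ApoE-deficient samples, and double-deficient replicate 3, the highest for 7 of the 9 synthesis genes, was the lowest for this list. Skeletal muscle markers split the aortas along other lines. Their medians were 1.44 in double-deficient replicate 4 and 1.86, 2.29 and 0.81 in ApoE-deficient replicates 2, 3 and 4, and -1.42 to -1.18 in the other aortas. ApoE-deficient replicates 1 and 2, both low in the synthesis genes, stood on opposite sides of that split.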
